A study of Mus musculus with 36 samples.

Results

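Gene expression in the liver of mice exposed to chronic intermittent hypoxia (IH) was compared with that of control mice at ZT16, the middle of the active phase, 8 h after the last hypoxic cycle of the day. All libraries labelled ZT16 were taken, 3 from IH mice and 3 from control mice, of the 36 libraries in the series. The mice were male wild-type C57BL/6JRj animals of 16 weeks, kept 5 to a cage with 12 h of light and free access to chow and water, so they were not fasted. IH mice received 60 cycles per hour between 5% and 21% inspired oxygen from ZT0 (lights on) to ZT8 on each day of the 4 weeks, control mice received cycles of air on the same schedule, and each library came from the snap-frozen liver of 1 mouse. RNA was selected by its poly(A) tail, and each value is an FPKM, the number of sequenced fragments scaled to transcript length and to the size of the library. Of 24066 gene symbols listed on 1 row, the 13215 whose FPKM averaged 0.1 or more in the series were tested.

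Mice feed mainly in the dark, and at ZT16 the liver takes up portal glucose, runs glycolysis and turns part of the carbon into fatty acids and cholesterol. The enzymes of fatty acid and sterol synthesis are controlled by the SREBP transcription factors, those of carbohydrate breakdown by ChREBP, and those of fatty acid oxidation by PPAR-alpha, while insulin, growth hormone and glucocorticoids set the balance between them. In injury or infection the hepatocyte turns instead to acute-phase proteins such as serum amyloid A.

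At ZT16, 1 control library stood apart. Saa1, which encodes serum amyloid A, was at 43.8, 46.1 and 12912 FPKM in control replicates 1, 2 and 3, and at 79.6, 88.1 and 56.0 FPKM in the IH libraries. Saa2, a close paralog whose reads may not be separable from those of Saa1, was at 9.70, 14.4 and 12775 FPKM in control and at 16.4, 22.2 and 21.0 FPKM in IH. Control replicate 3 was the highest of the 6 libraries for 30 of 33 acute-phase genes tested, among them haptoglobin (Hp, 7185 FPKM against 1269 to 1865 in the others) and lipocalin 2 (Lcn2, 1432 FPKM against 1.86 to 2.96). Its log2 values correlated with those of the 5 others at r of 0.982 to 0.984 across genes, against 0.993 to 0.995 among those 5. It was the lowest of the 6 libraries for 40.7% of all genes tested and the highest for 14.3%. Neutrophil markers summed to 14.1 FPKM there and to between 0.594 and 1.44 FPKM in the others, and Kupffer cell and macrophage markers to 152 FPKM against 56.5 to 103 FPKM. The count of calls, and each gene list whose calls change when this library is left out, are therefore given with and without it. Hepatocyte markers such as albumin and transthyretin summed to 49752 to 61536 FPKM in all 6 libraries, and 6 of 7 exocrine pancreas markers were at 0 in all of them.

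At a nominal P of 0.01 or less in limma, the threshold used for calls here, 158 genes were higher and 55 were lower in IH than in control. These are 1.20% and 0.416% of the genes tested, and 1.61% together. If no gene differed, 132 genes would reach this threshold, in both directions together. The 55 lower calls do not exceed an even share of these. One gene, Snora31, passed a Benjamini-Hochberg adjusted p of 0.05, and 895 genes (6.77%) had a nominal P of 0.05 or less. With control replicate 3 left out, 184 genes (1.39%) were called higher and 122 (0.923%) lower, and 11 passed the adjusted threshold. Of the calls, 103 of the higher and 38 of the lower genes were made in both fits. The median log2 difference over all genes was 0.02, and 0.00 without control replicate 3. The excess of higher over lower calls depended on scaling: 74.2% of calls were higher with the deposited FPKM, and 58.8% when libraries were scaled by their median ratio, which lowered the median difference to 0.00. In bulk tissue, fewer cells of a type and less RNA per cell cannot be told apart.

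**Figure D1:**
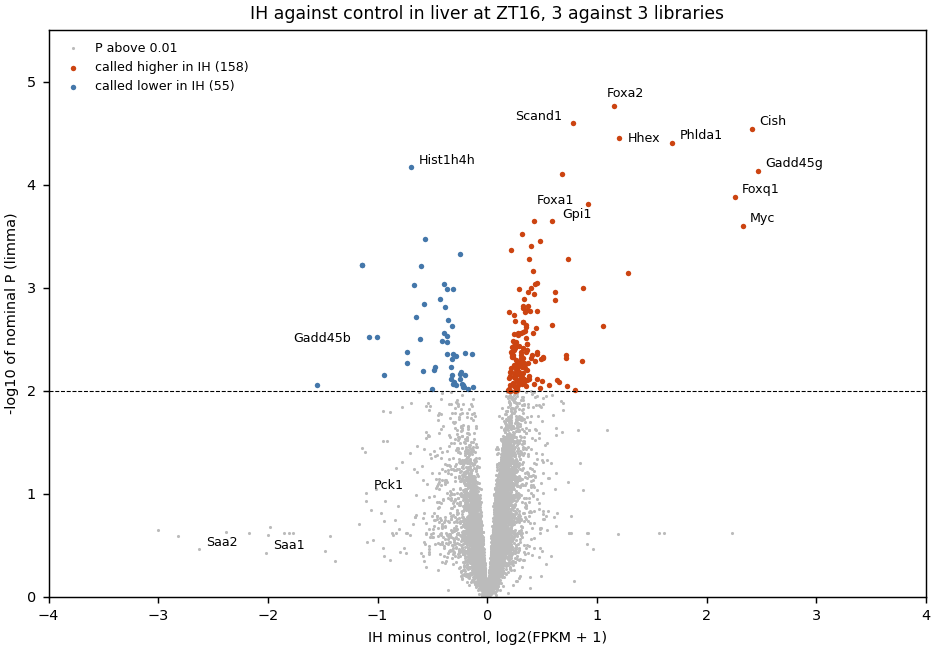
Each point is 1 of the genes tested, with the IH minus control difference on the log2(FPKM + 1) scale on the x axis and the negative log10 of the nominal limma P on the y axis. The dashed line marks P of 0.01, above which 158 genes lie to the right (red) and 55 to the left (blue), and 2 genes, Snora31 and Mir8094, lie beyond the left edge of the axis.

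Of the 12 genes with the smallest P among those higher in IH, Foxa2, Foxa1, Hhex, Foxq1 and Myc encode transcription factors. The pioneer factor Foxa2, which opens liver enhancers and lies on the minus strand at chr2:148042877-148046969 (GRCm38, the assembly also called mm10), was at 11.2, 11.5 and 13.0 FPKM in control and at 29.9, 23.9 and 29.9 FPKM in IH. The groups did not overlap, and the log2 difference was 1.16 ± 0.11 (SE, n = 3 and 3, limma adjusted p = 0.0867). Its paralog Foxa1 (chr12:57540628-57546916) rose from 6.00, 5.58 and 4.86 FPKM to 12.5, 11.9 and 9.45 FPKM, a log2 difference of 0.92 ± 0.12 (limma adjusted p = 0.184). Hhex, a homeobox factor needed for liver development (chr19:37434810-37440731), rose from 29.0, 36.3 and 27.4 FPKM to 67.4, 80.1 and 68.1 FPKM, by 1.20 ± 0.12. Foxq1 (chr13:31556134-31560976), another forkhead factor, was at 2.33, 2.31 and 5.60 FPKM in control and at 19.4, 15.6 and 22.3 FPKM in IH, a difference of 2.26 ± 0.28. The highest of its control libraries was replicate 3, and without it the difference was 2.58 (limma adjusted p = 0.0127). Myc (chr15:61985391-61990374), the growth-promoting transcription factor, was at 0.885, 1.85 and 2.74 FPKM in control and at 14.2, 8.15 and 17.4 FPKM in IH, a difference of 2.33 ± 0.33. Myc was the only member of the 21 immediate early genes tested that was called with all 6 libraries, and their median difference was 0.03. Leaving out control replicate 3 added Btg2, an antiproliferative gene, which was called higher.

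Among the same 12 genes were Cish, Gadd45g and Phlda1. Cish (chr9:107296026-107302784), which growth hormone and cytokines induce through STAT5 and which damps their receptors, was at 3.27, 2.34 and 5.25 FPKM in control and at 19.5, 27.6 and 21.9 FPKM in IH. Every IH library lay above every control library, and the difference was 2.41 ± 0.24 (limma adjusted p = 0.0867), or 2.65 without control replicate 3 (adjusted p = 0.0149). Socs2, another feedback inhibitor of the growth hormone receptor, was not called. It was at 6.65, 2.50 and 15.3 FPKM in control and at 3.96, 13.8 and 9.89 FPKM in IH (limma adjusted p = 0.938). Cish was the only member called with all 6 libraries among 21 genes of the insulin, growth hormone and IGF axis, whose median difference was 0.01. Leaving out control replicate 3 added Bcl6, a repressor, which was called lower. Gadd45g (chr13:51846678-51848468), a growth arrest and stress gene, rose from 5.82, 4.57 and 8.51 FPKM to 25.8, 46.3 and 47.8 FPKM, by 2.47 ± 0.28. Phlda1 (chr10:111506286-111508645), which is induced by growth factors, rose from 31.8, 22.2 and 35.5 FPKM to 107, 97.7 and 86.2 FPKM, by 1.69 ± 0.18. Socs3, the inhibitor of IL-6 signalling, was at 1.94 and 1.65 FPKM in control replicates 1 and 2, at 8.10 FPKM in control replicate 3 and at 4.25, 4.65 and 4.62 FPKM in IH. It was not called over all 6 libraries (limma adjusted p = 0.867) and was called without control replicate 3 (difference 0.98, limma adjusted p = 0.0379).

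The remaining genes among the 12 with the smallest P were Scand1, Pltp, Msrb2 and Gpi1. Pltp, the phospholipid transfer protein that remodels lipoproteins, rose from 24.2, 21.2 and 21.1 FPKM to 35.8, 34.0 and 38.4 FPKM, by 0.68 ± 0.08. Msrb2, a mitochondrial methionine sulfoxide reductase, rose by 0.43 ± 0.06 from control values that lay between 5.65 and 5.73 FPKM. Scand1, a small SCAN-domain protein, rose by 0.78 ± 0.08. All 12 higher genes stayed at P of 0.01 or less in each of the 6 fits that left out 1 library. So did the 12 lower genes except Nop58, which was called in 3 of the 6. The genes had been picked by their P in these same libraries.

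**Figure D2:**
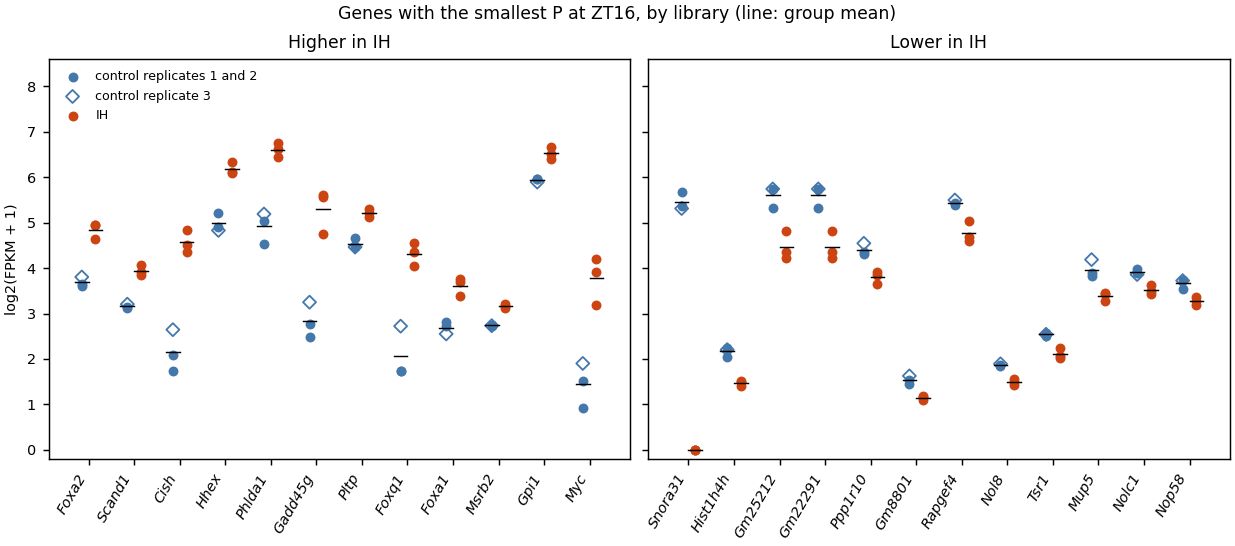
The y axis gives log2(FPKM + 1) in each library for the 12 higher (left) and 12 lower (right) genes with the smallest P, with control in blue, control replicate 3 as an open diamond, IH in red and a line at each group mean. IH and control do not overlap for any of the 24, which were picked by their P in these same libraries. Of all genes tested, 10.0% lay above control without overlap and 3.84% below. Among the higher genes, control replicate 3 is the control library nearest to IH for Foxa2, Scand1, Cish, Phlda1, Gadd45g, Foxq1 and Myc. Among the lower genes it is the nearest for Snora31 and Nolc1.

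Several of these genes varied widely between mice at the other time points. Over the 18 control libraries Myc ran from 0.637 to 23.0 FPKM, Foxq1 from 2.07 to 49.1, Gadd45g from 1.32 to 149, Phlda1 from 15.9 to 150.2 and Cish from 1.16 to 52.0 FPKM. At ZT4 control Gadd45g was at 58.3 ± 79.3 FPKM (SD, n = 3), and at ZT16 at 6.30 ± 2.01 FPKM. The IH libraries at ZT16 thus lay within the range of control libraries taken at other times for all 5 genes. A fit of all 36 libraries shares 1 estimate of spread. Its limma P for the ZT16 difference was 0.0349 for Cish, 0.0105 for Foxq1, 0.0247 for Gadd45g, 0.0312 for Phlda1, 0.012 for Foxa2 and 0.00914 for Myc. For Hhex and Pltp, of the same 12 genes, it was 0.0549 and 0.114. Of the 12 lower genes, Nolc1, Nop58, Nol8, Tsr1, Mup5, Gm22291 and Gm25212 had a limma P above 0.05 in that fit, from 0.0685 (Mup5) to 0.271 (Gm22291). Of the 55 called genes with values kept for naming, 9 were called in that fit (among them Gpi1, Pklr, Msrb2, Myc, Gadd45b, Rn45s, Lars2 and the channel gene Hcn3), and Gpi1 alone of all genes passed the adjusted threshold (adjusted p = 0.00467).

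The estimates at the other time points were as follows. For Cish the log2 difference was -0.86 at ZT0, -0.40 at ZT4, -0.33 at ZT8, -0.62 at ZT12 and -0.36 at ZT20, each with an SE of 1.09. These 5 estimates lay within 1 SE of 0, so no difference of either sign is shown there. At ZT0, ZT4, ZT12 and ZT20 the estimates were between -0.92 and -0.66 for Myc (SE 0.83) and between -1.41 and -0.42 for Foxq1 (SE 0.82). At ZT8 they were positive, 0.405 for Myc and 0.035 for Foxq1. For Gpi1 the estimates were positive at each time point, 0.07 at ZT0, 0.39 at ZT4, 0.21 at ZT8, 0.35 at ZT12, 0.59 at ZT16 and 0.21 at ZT20 (SE 0.09). Of the 158 genes called higher at ZT16, the estimate was also positive for 82 at ZT0, 124 at ZT4, 121 at ZT8, 54 at ZT12 and 120 at ZT20. As shares these are 51.9%, 78.5%, 76.6%, 34.2% and 75.9%, beside 44.4%, 68.0%, 55.4%, 57.7% and 63.1% of all genes tested. Of the 55 genes called lower, 24, 30, 30, 21 and 31 had a negative estimate at these times. As shares these are 43.6%, 54.5%, 54.5%, 38.2% and 56.4%, beside 55.4%, 31.9%, 44.4%, 42.1% and 36.7% of all genes tested.

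Whether the ZT16 difference was of another size than elsewhere was tested in 1 model of the 36 libraries. Against the mean difference at the 5 other time points, 0 genes passed an adjusted p of 0.05 in limma (smallest 0.675), and 340 (2.57%) had a nominal P of 0.05 or less. Against the mean of ZT4 and ZT8, in and at the end of the hypoxic hours, 0 genes passed (smallest adjusted p = 0.527), and 410 (3.10%) had a nominal P of 0.05 or less. Among the genes named here the smallest nominal P were those of Gadd45b (0.000393 and 0.000493) and Nfkbia, the inhibitor of NF-kappaB (0.00124 and 0.00038). Their ZT16 difference was negative and their differences at ZT4 and ZT8 positive, at -1.08, 0.79 and 0.17 for Gadd45b and -0.46, 0.73 and 0.16 for Nfkbia. No difference is therefore shown to be particular to ZT16.

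**Figure D3:**
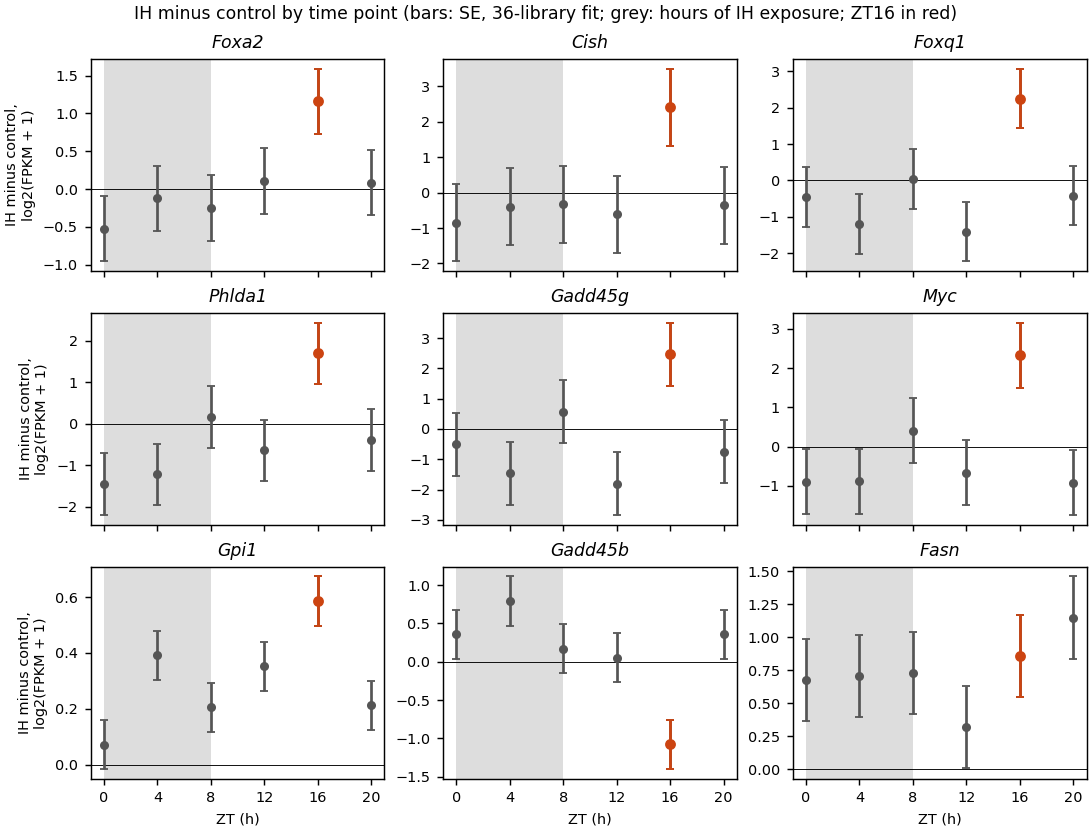
Points give the IH minus control difference on the log2(FPKM + 1) scale at each time point, with the SE of the 36-library fit as bars, for 9 genes named in the text, and the grey band marks the hours of IH exposure. For Cish and Foxa2 the ZT16 estimate (red) stands above the 5 others, for Gadd45b it lies below them, and for Fasn and Gpi1 all 6 estimates are above 0.

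Of 19 glycolytic genes, 3 were called higher and 0 lower, beside 1.20% and 0.416% of all genes tested. Of the 19, 9 did not overlap, with IH above control, where 10.0% of all genes did so and 3.84% lay below. Gpi1, glucose-6-phosphate isomerase on the minus strand at chr7:34201330-34230336, was at 61.3, 61.7 and 58.4 FPKM in control and at 90.7, 83.2 and 101 FPKM in IH, a difference of 0.59 ± 0.08 (limma adjusted p = 0.231). Pklr, the liver pyruvate kinase and a ChREBP target (chr3:89136142-89146784), rose from 146, 138 and 81.7 FPKM to 235, 229 and 279 FPKM, by 1.06 ± 0.22. The lowest of its control libraries was replicate 3, and without it the difference was 0.80 (limma adjusted p = 0.0982). Ketohexokinase (Khk) and the glucose transporter Slc2a2 did not overlap between the groups either but were not called, with limma adjusted p of 0.625 and 0.643. Ldha, which makes lactate and is a hypoxia target, was at 321, 289 and 421 FPKM in control and at 288, 304 and 296 FPKM in IH, and was not called. The median difference of the list was 0.11, and 0.16 without control replicate 3, beside 0.02 and 0.00 for all genes.

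Genes of fatty acid and triglyceride synthesis had the highest median difference of the gene lists over all 6 libraries, although 1 of 25 was called. Fasn, fatty acid synthase (chr11:120805846-120824547), was at 86.1, 84.4 and 77.1 FPKM in control and at 177, 105 and 183 FPKM in IH. All IH libraries lay above all control libraries, with replicate 2 the closest, and the difference was 0.86 ± 0.21 (limma adjusted p = 0.549). Without control replicate 3 the difference was 0.81 and the gene was no longer called. All 25 genes had a higher mean in IH, where 59.4% of all genes tested did, and the median difference was 0.33. Of the 25, 9 lay above control without overlap, beside 10.0% of all genes tested. Acaca, acetyl-CoA carboxylase, went from 9.71, 9.99 and 10.0 FPKM to 13.4, 11.0 and 16.1 FPKM (0.40 ± 0.13), the elongase Elovl6 from 17.2, 19.5 and 20.9 FPKM to 30.3, 22.2 and 45.1 FPKM, and malic enzyme Me1, a source of NADPH, from 50.7, 42.4 and 53.9 FPKM to 66.7, 67.8 and 111 FPKM, of which none was called. IH replicate 3 was the highest library for each of these 4 genes. Gpam, the first step of glycerolipid synthesis, did not overlap and was not called either (limma adjusted p = 0.731). Without control replicate 3, 3 members were called higher, namely the desaturase Scd1, Pgd of the pentose phosphate pathway and the citrate carrier Slc25a1, and 23 of 25 had a higher mean, where 50.5% of all genes did. Leaving out each library in turn or changing the scaling kept the median of the list between 0.20 and 0.48, with 0 to 5 members called. The estimates for Fasn were positive at all 6 time points, from 0.32 at ZT12 to 1.15 at ZT20 (SE 0.31).

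The calls among genes of cholesterol synthesis and uptake turned on control replicate 3. With all 6 libraries 4 of 26 were called higher and 0 lower, beside 1.20% and 0.416% of all genes tested. Mvd, mevalonate diphosphate decarboxylase (chr8:122433601-122443422), was at 11.5, 12.3 and 21.8 FPKM in control and at 26.2, 24.8 and 27.2 FPKM in IH (0.80 ± 0.22, limma adjusted p = 0.615). Tm7sf2, a sterol reductase, was at 59.8, 66.6 and 67.3 FPKM in control and at 79.4, 83.9 and 79.8 FPKM in IH (0.33 ± 0.07). Insig1, which holds SREBP in the endoplasmic reticulum and is itself an SREBP target, rose from 163, 170.2 and 197 FPKM to 271, 227 and 214 FPKM (0.42 ± 0.11), and Stard4, a cholesterol transfer protein, from 7.65, 6.48 and 6.92 FPKM to 9.00, 8.95 and 8.82 FPKM (0.31 ± 0.07). All 26 genes had a higher mean in IH, beside 59.4% of all genes tested, with a median difference of 0.32.

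With control replicate 3 left out, 19 of the 26 were called higher and 0 lower, with a median of 0.50. In that fit 1.39% of all genes tested were called higher and 0.923% lower, with a median of 0.00. In 23 of the 26 genes control replicate 3 was above both other control libraries, in 16 it was above at least 1 IH library and in 10 above all 3. Hmgcs1, which makes HMG-CoA, was at 30.0, 27.1 and 60.2 FPKM in control and at 71.1, 66.6 and 60.2 FPKM in IH. It was not called with all 6 libraries, and passed the adjusted threshold without control replicate 3 (difference 1.18, limma adjusted p = 0.0224). Fdps, farnesyl diphosphate synthase, was at 106, 136 and 335 FPKM in control and at 255, 263 and 273 FPKM in IH, with control replicate 3 the highest of the 6. Only 1 member was called when libraries were scaled by their median ratio, with all 6 libraries in the fit.

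**Figure D4:**
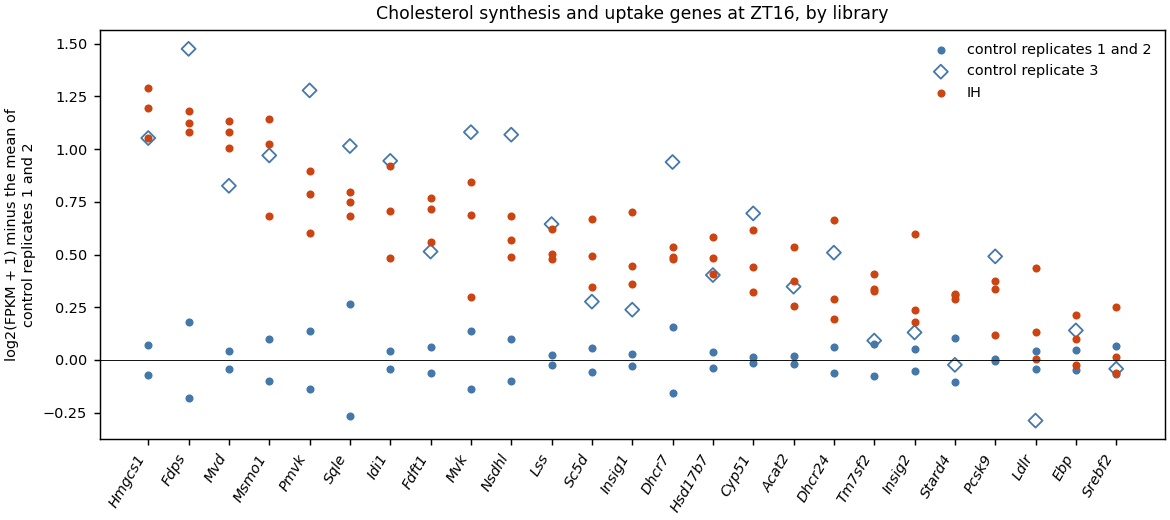
For 25 of the cholesterol synthesis and uptake genes, the y axis gives log2(FPKM + 1) in each library minus the mean of control replicates 1 and 2. The 3 IH libraries (red) lie above both of these controls (blue) in 22 genes, and control replicate 3 (open diamond) lies among or above the IH libraries in most of them, as in Fdps and Pmvk. Separation from 2 controls is easier than from 3, and its share over all genes was not computed. Against all 3 controls, 9 of the 26 genes of the list lay above without overlap, beside 10.0% of all genes tested.

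Promoter sequence is shown for 2 of these genes and for the Gadd45 pair described below. The SREBP site in sterol gene promoters is the textbook link between sterol level and transcription. Of the 2 sterol genes shown, Hmgcs1 holds the sterol element searched for in its window and Insig1 does not. Each line gives the 250 bases before the RefSeq start on the coding strand, 5′ to 3′, in build GRCm38.p6. Capitals mark the sterol regulatory element TCACNCCAC in Hmgcs1 (chr13:119690101-119690350, plus strand, 137 bases before the start) and the E-box CACGTG in the 3 others, at 101 bases before the start in Insig1 (chr5:28071162-28071411), 142 in Gadd45g (chr13:51846425-51846674) and 185 in Gadd45b (chr10:80929841-80930090), all on the plus strand.
Hmgcs1: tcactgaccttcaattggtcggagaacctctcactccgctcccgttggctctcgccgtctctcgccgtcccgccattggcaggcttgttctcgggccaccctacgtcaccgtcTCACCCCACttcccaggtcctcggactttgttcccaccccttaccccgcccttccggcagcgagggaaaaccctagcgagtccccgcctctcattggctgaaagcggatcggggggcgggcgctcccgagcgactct
Insig1: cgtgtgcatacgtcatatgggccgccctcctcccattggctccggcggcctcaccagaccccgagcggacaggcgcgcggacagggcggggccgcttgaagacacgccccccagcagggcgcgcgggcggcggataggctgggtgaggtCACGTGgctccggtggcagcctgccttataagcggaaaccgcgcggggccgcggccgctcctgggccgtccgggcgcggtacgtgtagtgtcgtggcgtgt
Gadd45g: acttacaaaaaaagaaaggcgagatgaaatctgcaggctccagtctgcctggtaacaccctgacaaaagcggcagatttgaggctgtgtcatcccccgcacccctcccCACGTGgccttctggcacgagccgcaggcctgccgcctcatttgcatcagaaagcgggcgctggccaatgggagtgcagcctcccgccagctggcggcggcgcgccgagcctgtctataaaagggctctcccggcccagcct
Gadd45b: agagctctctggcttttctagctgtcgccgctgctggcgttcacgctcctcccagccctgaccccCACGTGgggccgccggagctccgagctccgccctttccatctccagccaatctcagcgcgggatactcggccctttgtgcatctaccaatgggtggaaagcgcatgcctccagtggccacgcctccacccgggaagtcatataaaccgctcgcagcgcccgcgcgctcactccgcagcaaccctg
The motifs were searched on both strands in the windows of the RefSeq table, which held 121 of the 158 genes called higher, 38 of the 55 called lower and 9981 of the 13215 tested. The sterol element was in 0 of 155 windows of genes called higher and 1 of 48 of genes called lower, beside 1.07% of the windows of all genes tested. The E-box was in 7.10% and 6.25% beside 8.19%, the core TGACG of the cyclic AMP response element in 21.9% and 29.2% beside 25.8%, the ROR element AGGTCA in 16.1% and 14.6% beside 11.5%, and the hypoxia response core ACGTG, which the E-box contains, in 19.4% and 16.7% beside 21.1%. Among all promoters of the table the 5 motifs were in 1.05%, 6.02%, 17.8%, 14.0% and 16.6% of windows, in the same order. In the cholesterol list itself the sterol element was in 1 of 23 windows and the E-box in 4 of 23, so the sequences shown were picked because they hold a motif. These shares are a description of letters and not of bound sites.

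Genes lower in IH were fewer, and their number was no more than would be called if no gene differed. Those with the smallest P included ribosome assembly genes and short RNAs. Nolc1, Nop58, Nol8 and Tsr1, which assemble and process ribosomal RNA in the nucleolus, fell without overlap. Nolc1 (chr19:46075863-46085530) was at 14.9, 13.8 and 13.5 FPKM in control and at 10.3, 11.4 and 9.81 FPKM in IH, and fell by 0.39 ± 0.07 on the log2 scale (limma adjusted p = 0.437). Tsr1 (chr11:74898071-74909342) was at 4.98, 4.72 and 4.83 FPKM in control and at 3.75, 3.20 and 3.08 FPKM in IH, with a difference of -0.43. Nol8 (chr13:49653078-49679016) was at 2.64, 2.57 and 2.71 FPKM and at 1.81, 1.95 and 1.69 FPKM, with a difference of -0.37. In a list of ribosome biogenesis genes written after these values were seen, and therefore no independent evidence, 6 of 45 were called lower and 0 higher (Nop58, Nolc1, Nol8, Gnl3, Tsr1 and Wdr43). The other gene lists were chosen with earlier results of these data known, and are not independent of them either. Of all genes tested, 0.416% were called lower, and 0.923% without control replicate 3. The median of the ribosome biogenesis list was -0.11, and -0.14 with 5 called lower without control replicate 3. Of the list, 10 had higher means in IH, among them fibrillarin (Fbl, 0.04), nucleolin (Ncl, 0.11) and nucleophosmin (Npm1, 0.15), none of which was called. The 78 cytosolic ribosomal proteins tested had 75 means higher in IH, beside 59.4% of all genes tested, with a median of 0.12. Of the 78, 53 lay above control without overlap, beside 10.0% of all genes tested. With median ratio scaling their median was 0.075, beside -0.002 for all genes. Of these ribosomal proteins, 0 were called with all 6 libraries and 2, Rpl30 and Rpl37a, were called higher without control replicate 3.

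Other leading genes that fell were Ppp1r10, a regulator of protein phosphatase 1 (chr17:35916434-35932283), from 18.9, 19.4 and 22.4 FPKM to 11.5, 14.1 and 13.4 FPKM (-0.60 ± 0.10), and Rapgef4, which encodes the cyclic AMP sensor EPAC2 (chr2:71981240-72257474), from 40.9, 42.3 and 44.2 FPKM to 24.6, 31.8 and 23.1 FPKM (-0.67 ± 0.12). The histone gene Hist1h4h fell by 0.69 ± 0.08. Mup5, of the major urinary protein family, whose near-identical members may share reads, fell by 0.58 ± 0.11, and Gm8801, an annotated pseudogene that may share reads with its parent, by 0.39 ± 0.07.

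Short RNAs and ribosomal RNA also differed. Snora31, a small nucleolar RNA of 130 bases (chr14:75847905-75848034), was at 49.7, 40.0 and 38.7 FPKM in control and listed at 0 in all 3 IH libraries (limma adjusted p = 8.25e-06). It was also listed at 0 in 10 of 18 control and 12 of 18 IH libraries of the whole series, with values of up to 51.2 FPKM in the rest, and for so short an RNA a 0 can be a failed estimate. Gm22291 and Gm25212, annotated as ribosomal RNA of 119 bases on chromosome 8, had the same value in every ZT16 library, 52.7, 39.1 and 52.5 FPKM in control and 27.4, 19.4 and 17.6 FPKM in IH, and count as 1 measurement. Rn45s, the 45S ribosomal RNA precursor, was at 170.1, 201 and 107 FPKM in control and at 73.0, 82.1 and 74.7 FPKM in IH (limma adjusted p = 0.527). Lars2, a protein-coding gene for the mitochondrial leucyl-tRNA synthetase, was at 72.8, 80.5 and 41.3 FPKM in control and at 28.5, 35.9 and 31.8 FPKM in IH (limma adjusted p = 0.586). Both passed the adjusted threshold without control replicate 3 (Rn45s adjusted p = 0.0224 and Lars2 adjusted p = 0.0379). The 6 libraries fell in the same order for Lars2 as for Rn45s. Whether the Lars2 values hold reads of ribosomal RNA was not tested, so they may not be a separate change of its mRNA. Libraries were selected for poly(A), and the part of ribosomal RNA in the other results was not tested.

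Bile acid and sterol transport genes moved in both directions, with 2 of 22 called higher and 2 called lower, the same 4 with and without control replicate 3. Cyp8b1, the enzyme that commits bile acids to cholic acid (chr9:121914356-121916305), rose from 102, 129 and 114 FPKM to 200.2, 207 and 168 FPKM, by 0.73 ± 0.12 (limma adjusted p = 0.316). Slc10a1, the bile acid uptake carrier of hepatocytes, rose from 335, 343 and 259 FPKM to 422, 404 and 450 FPKM, by 0.45 ± 0.12. Abcg5 and Abcg8, neighbouring genes that together form the sterol exporter into bile, fell together, Abcg5 (chr17:84658234-84683011) from 21.9, 21.4 and 24.9 FPKM to 18.4, 17.6 and 18.4 FPKM and Abcg8 (chr17:84676302-84700333) from 15.0, 12.9 and 15.2 FPKM to 10.9, 11.5 and 10.3 FPKM. Their differences were -0.31 and -0.37 with SE of 0.07 and 0.08, and the genes overlap in the annotation on opposite strands. In xenobiotic metabolism 3 of 39 were called higher, namely Cyp2b10, a target of the nuclear receptor CAR (0.73 ± 0.20), Cyp2c38 (0.48 ± 0.13) and the glutathione transferase Gstm2 (0.45 ± 0.09). Without control replicate 3 Gstm2 alone of these was called higher and 4 others were called lower, and control replicate 3 was the lowest of the 6 libraries for 27 of the 39.

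Few oxidative genes were called. Of 29 genes of the TCA cycle and pyruvate dehydrogenase, citrate synthase (Cs, 0.32 ± 0.08) and Dlat (0.29 ± 0.08) were called higher, and the median was 0.12. Neither was called without control replicate 3, which was the lowest of the 6 libraries for 24 of the 29, and the median was then 0.03. Of 81 respiratory chain genes the complex I subunits Ndufa1 (0.24 ± 0.06) and Ndufa8 (0.28 ± 0.08) were called higher. Means were higher in IH for 80 of the 81, beside 59.4% of all genes tested, with a median of 0.15. Of the 81, 38 lay above control without overlap, beside 10.0% of all genes tested. With median ratio scaling 0 of the 81 were called and the median was 0.11, beside -0.002 for all genes. Control replicate 3 was the lowest of the 6 libraries for 63 of the 81, and without it the median was 0.10 and 0 were called. The mitochondrial peroxidase Prdx3 rose from 51.9, 50.6 and 52.9 FPKM to 60.8, 59.4 and 61.4 FPKM (0.22 ± 0.05), the only call among 23 antioxidant genes. Psmd9 was the only call among 47 proteasome genes (0.24 ± 0.06), and without control replicate 3 it lost its call while Psmb9, of the immunoproteasome, was called higher. Of 77 mitochondrial ribosomal proteins 0 were called, and 1, Mrpl40, was called higher without that library.

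**Figure D5:**
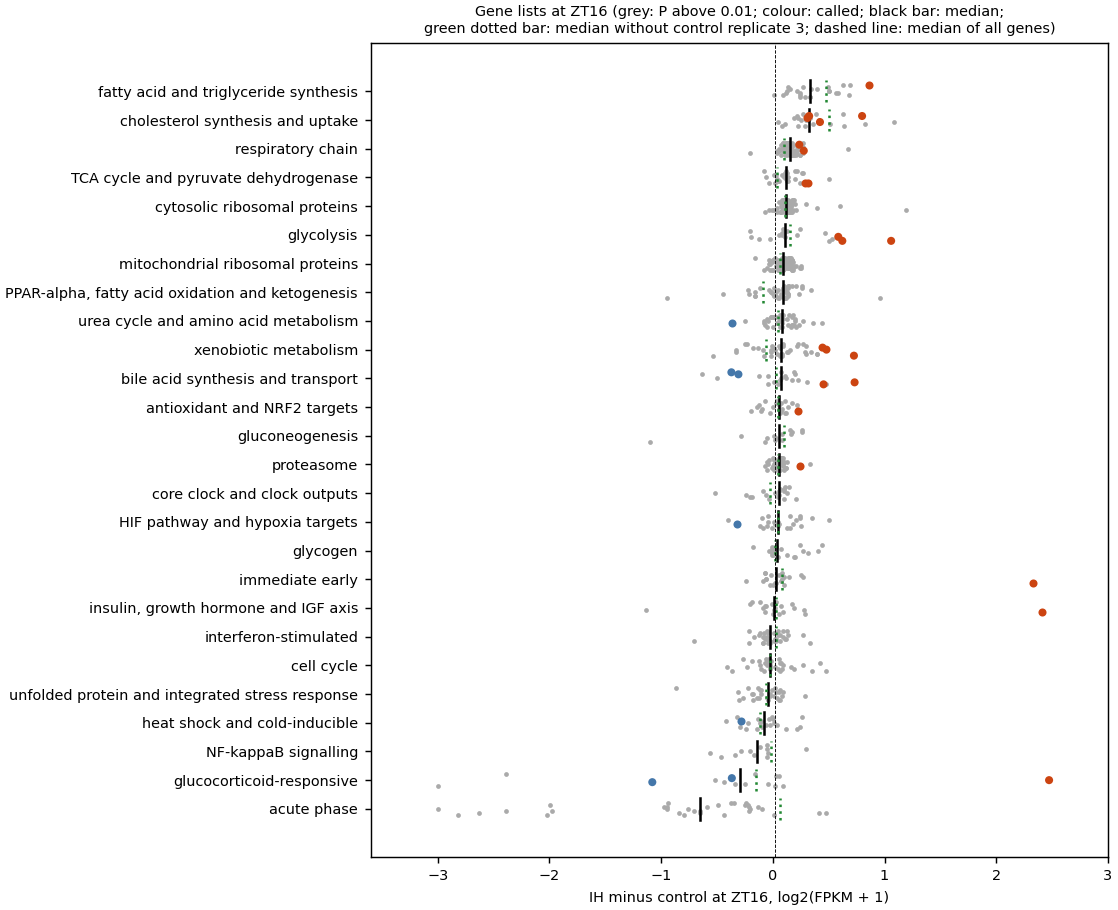
Each row is a gene list and each point a gene, placed by its IH minus control difference on the log2(FPKM + 1) scale, with called genes in colour, the median as a black bar and the median without control replicate 3 as a green dotted bar. Fatty acid synthesis and cholesterol synthesis have the highest medians, 0.33 and 0.32, and the acute-phase median moves from -0.65 to 0.06 when control replicate 3 is left out.

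Fatty acid oxidation, the counterpart of synthesis, depended on control replicate 3 for its direction. Of 46 PPAR-alpha, oxidation and ketogenesis genes 0 were called with all 6 libraries, and 4 were called lower without control replicate 3 (Angptl4, Vnn1, Acot1 and Slc22a5). Means were higher in IH for 35 with all 6 libraries and for 8 without control replicate 3, beside 59.4% and 50.5% of all genes tested, with medians of 0.09 and -0.09. That library was the lowest of the 6 for 39 of the 46. Angptl4, a PPAR-alpha target that inhibits lipoprotein lipase, was at 76.2, 80.5 and 41.6 FPKM in control and at 23.7, 37.0 and 38.9 FPKM in IH, without overlap (-0.95 ± 0.29, limma adjusted p = 0.657), and was called without control replicate 3 (adjusted p = 0.219). Vnn1, another target, was at 11.0, 9.22 and 4.07 FPKM in control and at 5.12, 5.06 and 5.68 FPKM in IH, called lower without that library (limma adjusted p = 0.0829) and not with it (adjusted p = 0.798). Cpt2, of the carnitine shuttle, had a difference of 0.00 ± 0.13.

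Gluconeogenesis and glycogen genes gave 0 calls. Pck1, the cytosolic PEP carboxykinase, was at 561, 609 and 841 FPKM in control and at 114, 485 and 519 FPKM in IH, so that the groups did not overlap and IH replicate 1 lay far below the others (-1.10 ± 0.57, limma adjusted p = 0.759). The same library was lowest for G6pc, glucose-6-phosphatase, at 80.8 FPKM against 207 and 209 FPKM in the other IH libraries and 157 to 201 FPKM in control. Fbp1 was at 586, 606 and 637 FPKM in control and at 707, 687 and 798 FPKM in IH (limma adjusted p = 0.689). Of 20 glycogen genes Pygl, liver glycogen phosphorylase, came nearest to a call, at 168, 159 and 121 FPKM in control and at 199, 193 and 211 FPKM in IH (0.44 ± 0.13, limma adjusted p = 0.631). Gys2, glycogen synthase, was at 77.1, 77.6 and 52.0 FPKM in control and at 82.1, 72.3 and 77.9 FPKM in IH (limma adjusted p = 0.837). Leaving out control replicate 3 gave 3 glycogen genes called higher, Pygl among them, and 1 lower, Stbd1.

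Of 24 genes of the hypoxia-inducible factor pathway and its targets, 0 were called higher and 1 lower, P4ha2, a collagen prolyl hydroxylase, at 4.68, 4.75 and 3.99 FPKM in control and at 3.59, 3.36 and 3.21 FPKM in IH (-0.32 ± 0.08). The median was 0.05, beside 0.02 for all genes. Pdk1, the kinase that closes pyruvate dehydrogenase, did not overlap, at 13.7, 13.1 and 10.8 FPKM in control and at 15.6, 17.0 and 22.3 FPKM in IH (limma adjusted p = 0.632).

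Of 19 core clock and clock output genes 0 were called with or without control replicate 3, and the medians were 0.05 and -0.03. Per1 had the smallest P. It was at 8.83, 9.57 and 10.7 FPKM in control and at 4.31, 8.01 and 7.62 FPKM in IH (-0.52 ± 0.21, limma adjusted p = 0.731). Arntl, the activator of the clock, was at 4.71, 6.53 and 5.94 FPKM in control and at 5.79, 5.60 and 7.19 FPKM in IH, and Nr1d1 at 1.69, 2.14 and 1.38 FPKM and 1.24, 1.37 and 1.49 FPKM. Dbp, Per2, Cry1 and Creb1 had differences of 0.06 ± 0.12, 0.06 ± 0.22, 0.15 ± 0.17 and 0.01 ± 0.06. These values do not show that the clock genes were alike.

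Among 16 glucocorticoid-responsive genes 1 was called higher and 2 lower. The called genes included 2 paralogs that moved in opposite directions. Gadd45g rose, as given above, while Gadd45b (chr10:80930073-80932204) fell from 2.50, 3.21 and 1.31 FPKM to 0.246, 0.675 and 0.734 FPKM (-1.08 ± 0.24, limma adjusted p = 0.527), and both hold an E-box in the windows shown. Sgk1, a serum and glucocorticoid regulated kinase, fell from 5.95, 5.44 and 5.66 FPKM to 3.74, 4.39 and 4.43 FPKM (-0.37 ± 0.08). Tsc22d3, which encodes GILZ, was called lower without control replicate 3 (limma adjusted p = 0.219) and not with it (adjusted p = 0.759). Of 22 heat shock and cold-inducible genes Hspa4l alone was called (-0.29 ± 0.08). With control replicate 3 left out, 5 were called lower, which added Hsp90aa1 (-0.42), Hsp90ab1 (-0.31), Hsph1 (-0.39) and the cochaperone Stip1 (-0.31), and 1 higher, the cold-inducible Cirbp (0.32).

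In the acute-phase list 0 of 33 were called and the median was -0.65, and 0.06 without control replicate 3. Without it Saa1 was called higher (0.69, limma adjusted p = 0.425), as was Socs3, and Saa4, the constitutive form, was called lower, at 186 and 192 FPKM in control replicates 1 and 2 and at 127, 147 and 124 FPKM in IH (-0.51, adjusted p = 0.219). Of the amino acid and urea cycle list 1 of 41 was called, ornithine aminotransferase (Oat), which fell from 219, 214 and 195 FPKM to 146, 170 and 172 FPKM (-0.37 ± 0.09). Leaving out control replicate 3 added Mat1a, methionine adenosyltransferase, which was called higher (0.41). The lists of interferon-stimulated genes (38 tested), the unfolded protein response (30), the cell cycle (33) and NF-kappaB signalling (12) held 0 called genes with all 6 libraries and 1, 1, 1 and 2 without control replicate 3. Among marker genes of other cells only Hand2 of the stellate cell list was called, with a difference of 0.35 ± 0.07. Markers of Kupffer cells, neutrophils, lymphocytes, endothelial cells, cholangiocytes, erythroid cells and adipocytes gave 0 calls.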

How the data were processed

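The authors aligned reads of poly(A)-selected, stranded libraries to mm10 with TopHat2 2.1.1 and deposited Cufflinks 2.2.1 FPKM values for each replicate, with versions from the submitters' processing notes. The gene annotation they used is not given in the sources used here. The deposited tables hold FPKM, not counts, so depth is unknown and no counting interval is given. Columns carry the same names in both tables, and the name of the table gave the condition.

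FPKM were put on the log2(FPKM + 1) scale, on which changes of low genes are understated, and fitted with limma 3.58.1 (R 4.3.3) with an intensity trend. The 280 symbols on more than 1 row were left out. The ZT16 libraries were fitted with and without control replicate 3, and contrasts between time points used all 36. A call is a nominal P of 0.01 or less. The fit was tested on simulated data. Values are given for the 12 genes of each direction that had the lowest P and averaged at least 1 FPKM, for genes the study names, clock genes, called members of lists, Saa1 and Saa2. Other genes, such as Socs2, Hmgcs1, Rn45s and Lcn2, were chosen after their values were seen. The members and the lists were chosen with earlier results of these data known. Nothing in the labels says which mice share a cage, and p-values measure the spread between these mice. Coordinates are from GENCODE on GRCm38 and promoters from RefSeq. Alternatives in scaling, filter, pseudocount, libraries and model are given at the end. Values of a few list members counted in the totals are not reported here.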

Additional observations from a re-analysis of the deposited data

How the results depend on the processing

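With 158 genes called higher, 55 lower and 1 past the adjusted threshold, the counts moved by more than 1.5 times under these alternatives. They were 255, 95 and 2 with no filter on low values, and 281, 146 and 11 with sample weights. When all 36 libraries shared 1 estimate of spread they were 68, 14 and 1, fewer calls than the 132 reached if no gene differed. They were 150, 32 and 3 when that fit left out the control libraries of ZT12, of which replicate 2 had Saa1 at 20546 FPKM. Leaving out each library in turn gave 85 to 184 higher, 29 to 122 lower and 1 to 11 past the adjusted threshold, with the most calls without control replicate 3 and the fewest higher calls without IH replicate 2 and the fewest lower without IH replicate 3. With the replicate number as a block the fit gave 90 higher and 44 lower, and 36 of 55 named calls stayed past the threshold. The replicate numbers are not shown to pair the mice. Same-numbered deviations correlated by 0.07, -0.18 and -0.05, and 1 of 3 control and 1 of 3 IH libraries correlated best with their own number. With 3 libraries to a group and control replicate 3 far from the others, these values cannot decide whether the numbers mark a pairing. Of the 55 named calls, 26 held in all 6 fits that left out 1 library and 9 in the 36-library fit. None reversed under any alternative run, but these genes were picked by their P in the same ZT16 libraries. Fits that change only the estimate of spread, such as the 36-library fit, keep the ZT16 difference and could not reverse it. The contrasts between time points gave 0 genes at an adjusted p of 0.05 under each alternative run.

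Genes that were not called changed sign. Under sample weights the log2 difference was -0.556 for Acot1, -0.034 for Clock, -0.143 for Cpt2, -0.006 for Creb1, -0.019 for Hlf, 0.128 for Nfil3, -0.205 for Per2, -0.012 for Per3 and 0.067 for Saa1. With median ratio scaling it was -0.036 for Cpt2 and -0.009 for Creb1, and with quantile normalization -0.093 for Cpt2. Leaving out 1 library at a time gave ranges of -0.726 to 0.601 for Acot1, -0.014 to 0.186 for Arntl, -0.017 to 0.086 for Bhlhe41, -0.053 to 0.118 for Clock, -0.137 to 0.104 for Cpt2, -0.027 to 0.04 for Creb1, -0.114 to 0.038 for Cry2, 0 to 0.155 for Dbp, -0.513 to 0.167 for G6pc, -0.001 to 0.284 for Gys2 and -0.045 to 0.338 for Hlf. The ranges were -4.394 to 0.091 for Lcn2, -0.432 to 0.198 for Nfil3, -0.193 to 0.212 for Per2, -0.025 to 0.194 for Per3, -3.392 to 0.693 for Saa1, -4.419 to 0.692 for Saa2, -0.266 to 0.842 for Socs2 and -0.007 to 0.183 for Tef. The cause was not tested. Depth is unknown from FPKM and limits low genes most.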

Other observations

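Hcn3, which encodes a cation channel and was chosen after its values were seen, was at 5.64, 5.19 and 2.76 FPKM in control and at 13.4, 11.0 and 11.9 FPKM in IH. The groups did not overlap, and the log2 difference was 1.28 ± 0.22 (limma adjusted p = 0.351), or 1.03 without control replicate 3 (adjusted p = 0.0421). In the annotation Hcn3 (chr3:89146074-89160196, minus strand) overlaps the end of Pklr (chr3:89136142-89146784, plus strand), which was also called higher, and whether reads of one were counted for the other was not tested.

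Bcl6, a transcriptional repressor that growth hormone lowers through STAT5 in liver, was at 12.5, 34.2 and 9.29 FPKM in control and at 8.19, 6.02 and 6.08 FPKM in IH. It was not called with all 6 libraries (-1.14 ± 0.43, limma adjusted p = 0.731) and was called lower without control replicate 3 (-1.50, adjusted p = 0.414), where control replicate 2 alone lay far above the others.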
